A study of Zea mays with 12 samples.

Results

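The comparison described here sets the basal endosperm transfer layer (BETL) against the maternal transfer zone (MATZ) of the maize kernel at 8 days after pollination (DAP). It uses 4 of the 12 RNA-seq libraries of the study, 2 of BETL and 2 of MATZ, chosen by the tissue and age that their labels give. Both groups were wild-type kernels of the inbred line W22, taken from ears of field-grown plants, and the 2 tissues were cut apart by microdissection of frozen material. The other 8 libraries are the same tissues at 14 and 20 DAP. Nothing in the labels ties the 2 libraries of a tissue to different plants or ears, and the p-values therefore measure the spread between these libraries, which may be technical. RNA came from pieces of tissue, so fewer cells of a type and less RNA per cell cannot be told apart.

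The BETL is the part of the filial endosperm that lies against the mother plant. Its cells form ingrowths of the cell wall that enlarge the plasma membrane, take up sugars, amino acids and minerals, and secrete small cysteine-rich proteins. The MATZ is the maternal tissue that faces it, where the phloem unloads and from which nutrients pass to the endosperm without a direct cell connection. At this age the endosperm has formed its transfer cells and storage product synthesis is beginning.

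Levels are FPKM (fragments per kilobase of transcript, scaled to a common library size), as the authors deposited them. The 4 columns summed to 884504 and 902431 FPKM in BETL and to 749191 and 833936 in MATZ. Genes above 0 numbered 12609 and 15220 in the BETL libraries, against 20487 and 17896 in the MATZ libraries. Depth is not stated. Low values were spaced in steps, and taking a step as 1 fragment would put the libraries at roughly 144900 and 254800 fragments in BETL and 346400 and 162100 in MATZ. This is inferred, not counted. On that reading, 1 fragment on a transcript of 1000 bases is worth 6.90 and 3.93 FPKM in BETL and 2.89 and 6.17 FPKM in MATZ. Among genes that reached 10 FPKM in one library, 4.34% to 8.91% were listed at 0 in the other library of that tissue, so a 0 is given only as a listed value. Log2 differences are BETL minus MATZ on the log2(FPKM + 1) scale, given ± SE, and they understate the change of low genes. Adjusted p-values are from limma with Benjamini-Hochberg adjustment over all tested genes, and a gene is called where it is under 0.05.

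The share of genes called rose with the level in the higher tissue. The median log2 difference hardly moved between 5 and 1000 FPKM (−0.52 at 5 to 20, −0.55 at 20 to 100 and −0.53 at 100 to 1000 FPKM). Of 24213 tested genes, 522 were called higher in BETL (2.16%) and 1285 lower in BETL (5.31%), 1807 in all (7.46%), and the difference was at least 4-fold on the log2(FPKM + 1) scale for 457 of the higher and 900 of the lower ones. The calls rest on a spread pooled over the 12 libraries: a fit on these 4 libraries alone called 0 genes, with 4303 genes at an unadjusted p under 0.05, against 4846 in the fit on all libraries. The median log2 difference over all tested genes was −0.40. Quantile normalization moved this median to 0.01 and gave 743 genes higher and 877 lower, and median-of-ratios scaling moved it to −0.20 and gave 720 higher and 1156 lower. Without BETL replicate 1 there were 1029 calls, and without MATZ replicate 2 there were 1147.

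Lower calls outnumbered higher ones at every level of the higher tissue below 1000 FPKM. Of the lower calls, 211 had a mean under 5 FPKM in MATZ, while 21 of the higher calls had a mean under 5 FPKM in BETL. Among the 5360 genes with a mean of at least 20 FPKM in the higher tissue, 380 were higher (7.09%) and 691 lower in BETL (12.9%). Of 1288 genes at 100 to 1000 FPKM, 11.9% were higher in BETL and 23.0% lower, and of 3969 genes at 20 to 100 FPKM, 4.54% were higher and 9.25% lower. At 1000 FPKM or more in the higher tissue, 45.6% of 103 genes were higher in BETL and 27.2% lower. Genes called higher in BETL held 37.8% and 40.0% of all FPKM in the BETL libraries, against 2.69% and 2.79% in the MATZ libraries. Genes called lower held 5.95% and 5.87% in BETL and 23.9% and 24.2% in MATZ.

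**Figure D1:**
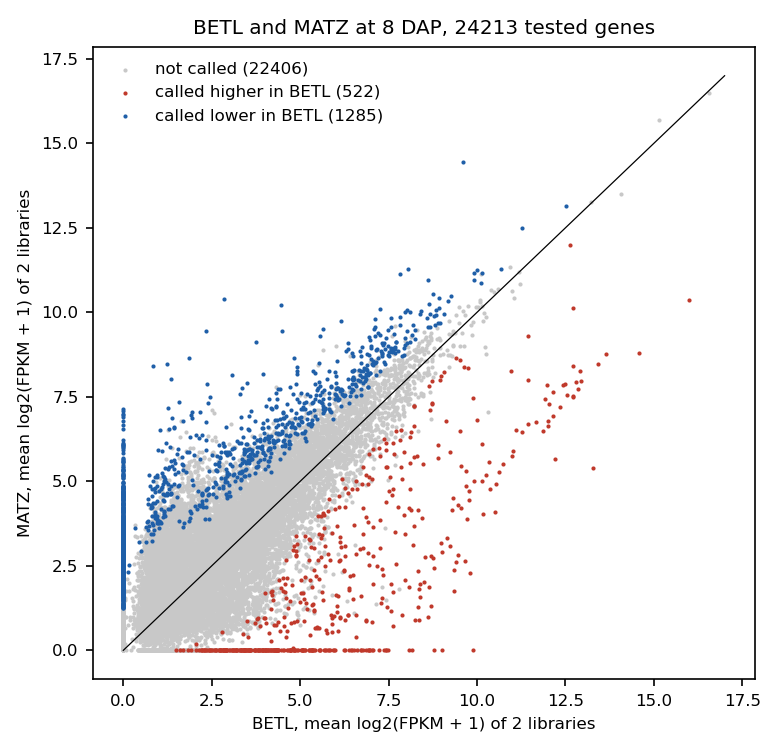
Mean log2(FPKM + 1) of 2 libraries in BETL (x axis) and in MATZ (y axis) for the 24213 tested genes at 8 DAP, with the line of equal levels. Red points are the 522 genes called higher in BETL, blue points the 1285 called lower, and grey points the rest. Most red points lie far below the line at high BETL levels, and the points on the axes are genes listed at 0 in both libraries of one tissue.

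Genes that define the basal endosperm and its transfer cells checked the labels first. Of the 16 tested genes on this list, 15 were called higher in BETL and 0 lower, with a median log2 difference of 5.06, against −0.40 over all tested genes. The exception was ebe1, listed at 0 in all 4 libraries. Summed over the list, the level was 45825 and 55119 FPKM in the BETL libraries, against 2370 and 2993 FPKM in the MATZ libraries. Every library of BETL was above every library of MATZ for each of the 15 genes. The list was assembled from genes known to mark this layer, so its direction checks the dissection.

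The betl and bap genes encode small secreted proteins of the transfer layer, and bap2 has antifungal activity. Levels of bap2 were 11351 and 14698 FPKM in BETL, against 429 and 440 FPKM in MATZ, a 30.0-fold difference of the means (log2 4.89 ± 0.29, limma adjusted p = 1.09e-05). For betl10 they were 5496 and 6439 FPKM in BETL, against 167 and 209 FPKM in MATZ (log2 4.98 ± 0.18, adjusted p = 6.4e-07). The related betl4 stood at 2777 and 3844 FPKM in BETL and at 90.3 and 125 FPKM in MATZ. These genes thus ran about alike within each tissue, with both MATZ libraries at a few percent of BETL. The MATZ libraries differed more for betl3 (6165 and 7398 FPKM in BETL, against 209 and 547 FPKM in MATZ) and for betl1c (1669 and 1768 FPKM in BETL, against 12.2 and 158 FPKM in MATZ). Another gene named for this layer, bap-1a, was at 1030 and 1260 FPKM in BETL and at 49.6 and 19.2 FPKM in MATZ.

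The meg genes encode small cysteine-rich peptides of the transfer cells, and MEG1 is known as a maternally expressed imprinted gene. MEG1 was at 1187 and 1409 FPKM in BETL, against 24.6 and 89.1 FPKM in MATZ (log2 4.75 ± 1.06, limma adjusted p = 0.0246). One of the 2 genes named meg2, GRMZM2G088896, was at 906 and 1626 FPKM in BETL and at 30.2 and 42.3 FPKM in MATZ (adjusted p = 0.00104). The other, GRMZM2G094054, was at 699 and 1114 FPKM in BETL and at 34.0 and 18.8 FPKM in MATZ (adjusted p = 0.0369). All 3 sit well apart between the tissues. The calls of MEG1 and GRMZM2G094054, and those of bap-3b and bap-3a, were each lost without any 1 of the 4 libraries at 8 DAP, and also without single libraries of the later ages, with adjusted p of up to 0.20, 0.223, 0.205 and 0.27. How reads of near-identical family members were shared out is not stated, so single levels in the betl, meg, bap and esr families are uncertain.

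A pair of genes of this list, tcrr-1 and ebe2, were listed at 0 in MATZ. The response regulator gene tcrr-1, which belongs to two-component signalling of transfer cells, was at 123 and 116 FPKM in BETL and at 0 in both MATZ libraries (limma adjusted p = 9.07e-05). The gene ebe2, named for expression in the basal endosperm, was at 119 and 110 FPKM in BETL and at 0 in both MATZ libraries (adjusted p = 0.0116, and up to 0.0861 without BETL replicate 1 or either MATZ replicate). The cell wall invertase mn1, which splits sucrose at the base of the kernel, had the smallest difference of the 15 called genes. It stood at 7225 and 6251 FPKM in BETL, against 1156 and 1071 FPKM in MATZ, 6.05-fold (log2 2.59 ± 0.18, adjusted p = 2.99e-05).

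**Figure D2:**
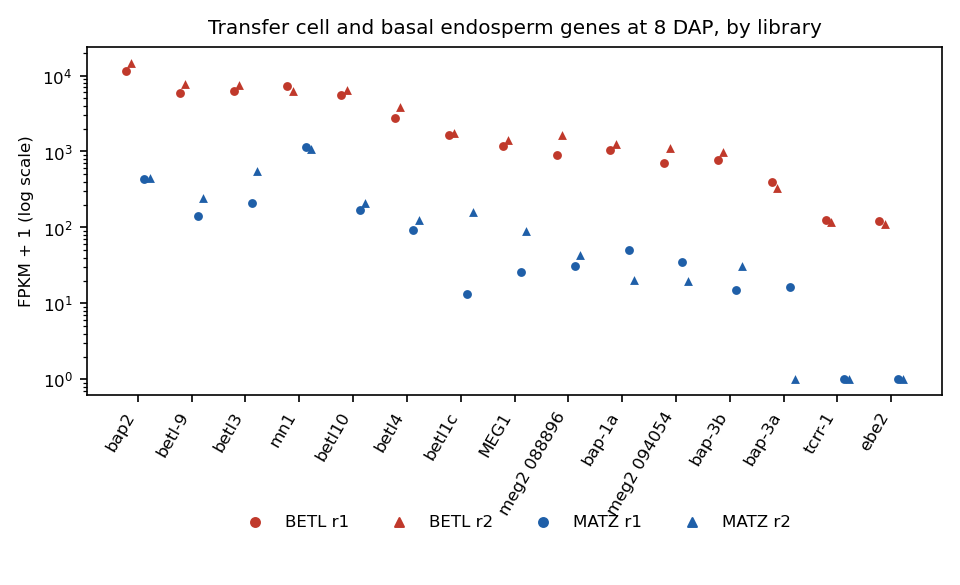
FPKM + 1 on a log scale for the 15 transfer cell and basal endosperm genes called at 8 DAP, ordered by their BETL mean, with red marks for BETL replicates 1 (circle) and 2 (triangle) and blue marks for MATZ replicates 1 and 2. In every gene both red marks lie above both blue ones, mn1 has the narrowest gap, and tcrr-1 and ebe2 are listed at 0 in MATZ.

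Transcripts of BETL were measured in MATZ at low levels. For the 50 most abundant genes called higher in BETL, the MATZ mean had a median of 3.27% of the BETL mean, with a range of 0% to 64.3%. Of these genes 39 were higher in MATZ replicate 2 than in replicate 1, with a median ratio of 1.45. The same count among uncalled genes at 100 FPKM or more in MATZ was 456 of 752, with a median ratio of 1.09. For the 50 most abundant genes called lower in BETL, the BETL mean had a median of 34.1% of the MATZ mean (0.568% to 66.3%), and 26 were higher in BETL replicate 2 than in replicate 1. Whether tissue carried over in dissection contributes to these values was not tested.

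Many of the most abundant BETL transcripts carry no descriptive name. Of the 50 most abundant genes called higher in BETL, 14 have one. The highest was GRMZM2G406552 (chromosome 4, 195759880 to 195760460 in the coordinates of the deposited table, whose genome build is not given in the sources used here). It stood at 61359 and 70372 FPKM in BETL, against 982 and 1777 FPKM in MATZ (log2 5.64 ± 0.22, limma adjusted p = 1.09e-06). Next came GRMZM2G107302 (chromosome 4, 1508758 to 1509325), at 25086 and 24289 FPKM in BETL and at 327 and 605 FPKM in MATZ. GRMZM2G158400 (chromosome 4, 210751468 to 210752118) was at 10284 and 11579 FPKM in BETL and at 318 and 403 FPKM in MATZ. The 3 are short gene models, each well under 1000 bases long, and none of their libraries overlapped between tissues. Genes called higher in BETL had a median span of 1849 bases, against 2228 bases for those called lower and 3236 bases for all tested genes.

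BURP7 (chromosome 7, 6570606 to 6574556), a gene of the plant-specific BURP domain family, had the largest difference among the named genes of high level. It was at 8914 and 11081 FPKM in BETL, against 63.6 and 25.9 FPKM in MATZ, 223-fold by the means (log2 7.90 ± 0.34, limma adjusted p = 1.57e-06). GRMZM2G700896, which has no name, was at 898 and 1002 FPKM in BETL and at 0 in both MATZ libraries. It was singled out after its values were seen, among 65 genes with at least 20 FPKM in both BETL libraries that were listed at 0 in both MATZ libraries. The converse pattern held for 68 genes, of which GRMZM2G179550 was at 0 in each BETL library and at 100 and 160 FPKM in MATZ.

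Called genes lay side by side on the chromosomes in several places. In all, 10 runs of at least 3 adjacent tested genes were called higher in BETL, with 36 of the 522 higher genes. The lower calls formed 7 runs, with 22 of the 1285 lower genes. How many runs scattered calls would give was not tested. The longest run, on chromosome 2 (224914975 to 224996267), held 6 genes, betl1c among them. Its members were at 378 to 6913 FPKM in BETL replicate 1 and at 415 to 8436 FPKM in BETL replicate 2, against 12.2 to 215 FPKM in MATZ replicate 1 and 0 to 430 FPKM in MATZ replicate 2. A run of 5 genes on chromosome 7 (12479307 to 12702254) held both genes named meg2. Its unnamed member GRMZM2G137959 was at 345 and 446 FPKM in BETL and at 2.96 and 0 FPKM in MATZ.

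On chromosome 3 (155345465 to 155458057), betl10 lay between AC196417.3_FG008, at 6348 and 7163 FPKM in BETL against 133 and 243 FPKM in MATZ, and GRMZM2G158407, at 6770 and 8070 FPKM in BETL against 200.3 and 226 FPKM in MATZ. The genes bap-3b and bap-3a formed part of a run of 4 on chromosome 10 (81019610 to 81173126). A pair of runs of 3 lay next to each other on chromosome 8, and there GRMZM2G496821 was at 456 and 581 FPKM in BETL and listed at 0 in both MATZ libraries. Some gene models in the runs on chromosomes 2 and 8 overlap each other and may share reads. Across the 10 chromosomes the share of tested genes called higher in BETL ran from 1.57% to 3.01%.

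Genes of the embryo surrounding region, the endosperm domain next to the embryo, formed another list. Against 2.16% higher and 5.31% lower over all tested genes, 3 of 11 tested genes on the list for this region and the embryo were called higher in BETL and 0 lower (median log2 0.79). All 3 are esr genes, which encode small secreted proteins. Levels of esr2 were 422 and 603 FPKM in BETL, against 5.63 and 11.3 FPKM in MATZ (log2 5.81 ± 0.52, limma adjusted p = 0.000161). Levels of esr1 were 110 and 157 FPKM in BETL and 0 in both MATZ libraries (adjusted p = 0.000289). The third, esr-6, was at 134 and 108 FPKM in BETL and at 6.79 and 5.82 FPKM in MATZ (adjusted p = 0.0155, and up to 0.119 without any 1 of the 4 libraries). ESR3 missed the threshold at 96.5 and 101 FPKM in BETL and 0 in both MATZ libraries (adjusted p = 0.0704). Oil body genes of the embryo were low, with ole1 at 26.9 and 5.23 FPKM in BETL and 0 and 5.76 FPKM in MATZ.

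Lists of regulators and storage genes of the endosperm held single calls. Over all tested genes 2.16% were called higher and 5.31% lower. Of 9 endosperm transcription factor genes, 1 was higher in BETL and 0 lower (median log2 −0.59 as deposited, and 0.08 with quantile normalization). It was fl3, a PLATZ-type regulator of the endosperm, at 644 and 565 FPKM in BETL, against 10.6 and 5.12 FPKM in MATZ (log2 6.17 ± 0.43, limma adjusted p = 3.07e-05). Among 6 Polycomb and imprinted genes, NRP1, an imprinted gene of the NAC family, was higher at 37.7 and 38.4 FPKM in BETL, against 0.879 and 0 FPKM in MATZ (adjusted p = 0.000113). Of 23 zein genes 1 was higher and 1 lower, against 2.16% and 5.31% of all tested genes. Their summed level was 71.7 and 62.7 FPKM in BETL and 39.5 and 68.8 FPKM in MATZ. The gamma zein gene gz27 was the higher one, at 25.7 and 31.7 FPKM in BETL, against 4.64 and 9.64 FPKM in MATZ (adjusted p = 0.00758). The beta zein gene bz15 was listed at 0 in both BETL libraries, against 7.10 and 27.9 FPKM in MATZ (adjusted p = 0.00175). By the inferred depths these MATZ levels are a few fragments on 1000 bases. The storage globulin gene leg1 was at 114 and 57.7 FPKM in BETL and at 3.24 and 0 FPKM in MATZ (adjusted p = 0.00103).

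Sugar metabolism showed genes on both sides. Of 8 sucrose synthase and invertase genes, 2 were higher in BETL and 2 lower (median log2 0.08), against 2.16% and 5.31% of all tested genes. Beside mn1, the sucrose synthase gene sus1 was higher, at 27.1 and 23.8 FPKM in BETL, against 1.30 and 2.34 FPKM in MATZ (log2 3.25 ± 0.45, limma adjusted p = 0.00246). The invertase gene incw1 was lower, at 2.30 and 11.3 FPKM in BETL, against 39.4 and 51.3 FPKM in MATZ (adjusted p = 0.0155, and up to 0.101 without either MATZ replicate). The other lower one, incw3, was at 0 in each BETL library and at 2.27 and 1.65 FPKM in MATZ, a level near that of 1 fragment (adjusted p = 0.023, and up to 0.0823 without either BETL replicate). The sucrose synthase gene sh1, a main one of starchy endosperm, was at 2.24 and 3.26 FPKM in BETL and at 7.97 and 1.36 FPKM in MATZ.

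Of 4 sugar transporter genes, the sucrose transporter gene sut1 was higher, at 66.9 and 63.05 FPKM in BETL, against 21.1 and 6.37 FPKM in MATZ (limma adjusted p = 0.0136, but 0.0707 without BETL replicate 1). Starch genes were low: of 16 tested, 1 was higher (bt1, adjusted p = 0.0485, and up to 0.154 without any 1 of the 4 libraries and without single libraries of the later ages) and 1 lower (wx1). Over all tested genes 2.16% were called higher and 5.31% lower. The starch list summed to 62.1 and 66.5 FPKM in BETL and to 84.5 and 58.6 FPKM in MATZ. The granule-bound starch synthase gene wx1 was at 0 in each BETL library and at 3.58 and 5.40 FPKM in MATZ (adjusted p = 0.00854). The converse held for bt1, at 3.86 and 6.69 FPKM in BETL and 0 in both MATZ libraries. Both calls rest on levels near that of 1 fragment. The aldolase gene ald1 was among the steadiest differences, at 1015 and 1013 FPKM in BETL, against 115 and 111 FPKM in MATZ (log2 3.16 ± 0.22, adjusted p = 2.99e-05).

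Several other named genes were high in BETL and nearly absent from the MATZ libraries. The dehydroascorbate reductase gene dhar2, whose enzyme recycles ascorbate, was at 386 and 443 FPKM in BETL, against 5.06 and 0 FPKM in MATZ (limma adjusted p = 0.00014). The Dof transcription factor gene DOF36 was at 167 and 147 FPKM in BETL, against 1.74 and 2.07 FPKM in MATZ, 82.4-fold (adjusted p = 2.4e-05). The gene baf1, which encodes an AT-hook protein known from maize ear formation, was at 133 and 99.99 FPKM in BETL and at 0 and 2.33 FPKM in MATZ (adjusted p = 0.000745). P4H6, a prolyl hydroxylase gene, was at 282 and 300.2 FPKM in BETL and at 6.54 and 8.86 FPKM in MATZ (log2 5.08 ± 0.30, adjusted p = 9.97e-06). Among 3 called genes of this kind at lower levels, MYB51 was at 17.3 and 36.4 FPKM in BETL and bZIP7 at 21.7 and 13.1 FPKM, both at 0 in MATZ, and TA1 was at 86.1 and 104 FPKM in BETL against 0 and 3.30 FPKM in MATZ.

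Cystatins, inhibitors of cysteine proteases, differed in both directions. Of 7 tested, 1 was higher, 2 were lower and 4 were not called, against 2.16% higher and 5.31% lower over all tested genes. Quantile normalization called 1 higher and 4 lower. The higher one was cc8, at 4037 and 3472 FPKM in BETL, against 51.1 and 154 FPKM in MATZ (log2 5.38 ± 0.45, limma adjusted p = 0.000113). Its relatives cc5 (142 and 172 FPKM in BETL, against 396 and 550 FPKM in MATZ, adjusted p = 0.00408) and cc3 (26.7 and 40.7 FPKM in BETL, against 165 and 128 FPKM in MATZ, adjusted p = 0.00277) were lower. Of 4 phytosulfokine precursor genes, which encode precursors of a growth peptide, 1 was higher, 1 lower and 2 not called. Here psk1 was higher, at 926 and 786 FPKM in BETL, against 281 and 385 FPKM in MATZ (adjusted p = 0.00347). PSK4 was lower, at 14.6 and 5.76 FPKM in BETL, against 180 and 256 FPKM in MATZ (adjusted p = 0.0125, and up to 0.116 without BETL replicate 2 or either MATZ replicate). Both gene groups were picked out after values were seen.

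The transcript with the largest excess in MATZ was GRMZM2G067315 (chromosome 1, 235909167 to 235910673), which has no descriptive name. It stood at 805 and 765 FPKM in BETL, against 22579 and 21876 FPKM in MATZ, 28.3-fold lower in BETL (log2 −4.82 ± 0.14, limma adjusted p = 3.7e-07). GRMZM2G031317 was at 260.2 and 267 FPKM in BETL and at 2151 and 2847 FPKM in MATZ (log2 −3.22 ± 0.18, adjusted p = 9.08e-06). The chitinase gene chn1, of the enzymes that cut fungal walls, was at 12.4 and 2.90 FPKM in BETL, against 1298 and 1403 FPKM in MATZ (log2 −7.54 ± 0.74, adjusted p = 0.000284). GRMZM2G099454 was at 14.2 and 30.8 FPKM in BETL and at 1095 and 1271 FPKM in MATZ (adjusted p = 0.00943, and up to 0.0919 without BETL replicate 1 or either MATZ replicate). In all 4 the tissues lay far apart.

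The genes HRGP and grp1 were among the abundant genes lower in BETL. HRGP, for a hydroxyproline-rich glycoprotein of the cell wall, was at 217 and 238 FPKM in BETL, against 2306 and 2176 FPKM in MATZ (log2 −3.30 ± 0.23, limma adjusted p = 2.91e-05). The glycine-rich protein gene grp1 was at 5874 and 5887 FPKM in BETL and at 9196 and 8980 FPKM in MATZ, 1.55-fold lower in BETL (adjusted p = 0.00973, and up to 0.0829 without any 1 of the 4 libraries). Of 25 genes of wall loosening and cellulose synthesis, 1 was higher and 1 lower (median log2 −0.91), against 2.16% and 5.31% of all tested genes. The xyloglucan endotransglycosylase gene xet1, whose enzyme re-joins wall polymers, was lower at 204 and 92.4 FPKM in BETL, against 800.4 and 721 FPKM in MATZ (adjusted p = 0.00121). The beta-expansin gene expB7 was higher at 146 and 114 FPKM in BETL, against 2.19 and 0 FPKM in MATZ (adjusted p = 0.00786, and up to 0.08 without BETL replicate 1 or MATZ replicate 2).

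**Figure D3:**
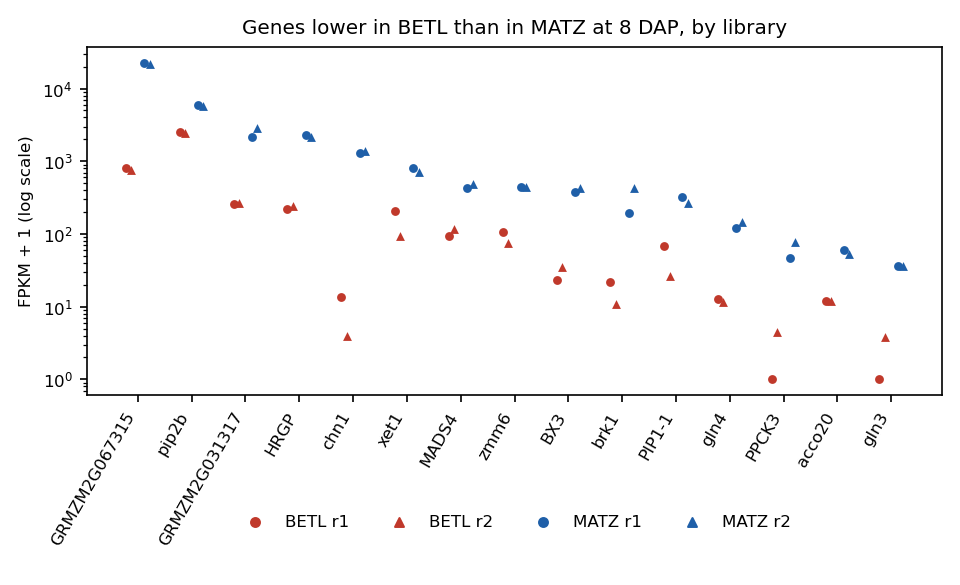
FPKM + 1 on a log scale for 15 genes called lower in BETL at 8 DAP, chosen for the text and ordered by their MATZ mean, with red marks for BETL replicates 1 (circle) and 2 (triangle) and blue marks for MATZ replicates 1 and 2. Both blue marks lie above both red ones in each gene, by the widest gap in chn1 and the narrowest in pip2b.

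Aquaporins are the water channels of membranes. Of 23 tested, 1 was higher in BETL and 5 lower, with a median log2 difference of −1.26 (−0.86 and 4 lower with quantile normalization). The shares over all tested genes were 2.16% higher and 5.31% lower. The plasma membrane channel gene pip2b was at 2520 and 2442 FPKM in BETL, against 5913 and 5703 FPKM in MATZ (log2 −1.23 ± 0.17, limma adjusted p = 0.0029). Levels of pip2e were 145 and 149 FPKM in BETL and 399.8 and 405 FPKM in MATZ, and those of PIP1-1 were 67.1 and 25.7 FPKM in BETL and 320 and 265 FPKM in MATZ. PIP1-3 was at 17.4 and 12.5 FPKM in BETL and at 65.0 and 82.5 FPKM in MATZ (adjusted p = 0.0118, lost with quantile normalization, and 0.0703 without MATZ replicate 2). The vacuolar channel gene TIP1-2 was at 6.85 and 3.64 FPKM in BETL and at 42.7 and 46.4 FPKM in MATZ (adjusted p = 0.033, and up to 0.144 without any 1 of the 4 libraries or a BETL library of 20 DAP). SIP1-1 was the higher member, at 362 and 243 FPKM in BETL, against 143 and 156 FPKM in MATZ (adjusted p = 0.0411, and up to 0.211 without BETL replicate 1 or either MATZ replicate and without single libraries of the later ages).

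Of 6 proton pump genes, which energize uptake across membranes, 0 were higher and 1 lower, against 2.16% and 5.31% of all tested genes. It was mha2, a plasma membrane pump gene, at 67.5 and 64.2 FPKM in BETL, against 186 and 151 FPKM in MATZ (limma adjusted p = 0.00727, but 0.057 with quantile normalization). Of 4 amino acid, nitrate and ammonium transporter genes 2 were lower in BETL and 0 higher (1 lower with quantile normalization), and of 8 genes of the phosphate and metal list 1 was lower and 1 higher. The nitrate transport partner gene NAR2.2 was at 0 in each BETL library and at 9.29 and 16.4 FPKM in MATZ (adjusted p = 0.00113), a level of a few fragments by the inferred depths. NRT1.2 was at 29.8 and 12.7 FPKM in BETL and at 107 and 94.6 FPKM in MATZ (adjusted p = 0.0164, and up to 0.0742 without BETL replicate 2 or either MATZ replicate). The phosphate transporter gene pht1 was at 0 and 9.52 FPKM in BETL and at 142 and 83.4 FPKM in MATZ (adjusted p = 0.0291, and up to 0.164 without BETL replicate 1, either MATZ replicate or a BETL library of 20 DAP). PAPhy, named for a phytase, was the higher one, at 407 and 387 FPKM in BETL, against 267 and 192 FPKM in MATZ (adjusted p = 0.0425, and up to 0.151 without MATZ replicate 2 or either BETL replicate and without single libraries of the later ages).

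Glutamine synthetase, which binds ammonium into glutamine for transport, was lower in BETL for 3 of 7 genes and higher for 0 (median log2 −1.14), against 5.31% and 2.16% of all tested genes. The group was picked out after values were seen. Levels of gln4 were 11.9 and 10.5 FPKM in BETL, against 122 and 147 FPKM in MATZ (log2 −3.47 ± 0.29, limma adjusted p = 0.000108). Levels of gln3 were 0 and 2.80 FPKM in BETL and 35.4 and 35.3 FPKM in MATZ (adjusted p = 0.0041). The third, gln2, was at 147 and 119 FPKM in BETL and at 299 and 398 FPKM in MATZ (adjusted p = 0.00836, but 0.0548 without MATZ replicate 2). PPCK3, a kinase gene of phosphoenolpyruvate carboxylase, was at 0 and 3.54 FPKM in BETL and at 45.5 and 75.5 FPKM in MATZ (adjusted p = 0.00211). Both thiamine synthesis genes tested were lower, thi1 at 0 in both BETL libraries and 20.7 and 17.99 FPKM in MATZ (adjusted p = 0.00107), and thi1-2 at 18.3 and 43.6 FPKM in BETL and 217 and 252 FPKM in MATZ (adjusted p = 0.00561, but 0.0542 without MATZ replicate 2).

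MADS-box genes, regulators of flower and ovule identity, were called in one direction. Of 34 tested, 7 were lower in BETL and 0 higher, with a median log2 difference of −1.07 (−0.76 with quantile normalization). The shares over all tested genes were 5.31% lower and 2.16% higher. At 100 to 1000 FPKM in the higher tissue, where MADS4 and zmm6 lie, 23.0% of tested genes were lower. MADS4 was at 91.8 and 115 FPKM in BETL, against 432 and 491 FPKM in MATZ (log2 −2.15 ± 0.19, limma adjusted p = 0.000164). Levels of zmm6 were 105 and 73.5 FPKM in BETL and 447 and 443 FPKM in MATZ (adjusted p = 0.000327). MADS18 was at 0 and 2.51 FPKM in BETL and at 29.4 and 25.01 FPKM in MATZ (adjusted p = 0.0035). The other called members, zmm27, ZAG1, zmm8 and zmm31, each lost the call without at least 1 of the libraries at 8 DAP, zmm27 without MATZ replicate 1, zmm8 without either MATZ replicate, ZAG1 without BETL or MATZ replicate 2 and zmm31 without any of the 4, with adjusted p of up to 0.0665, 0.0592, 0.0665 and 0.107. The ovule gene zag2 stood at 173 and 125 FPKM in BETL and at 228 and 239.5 FPKM in MATZ (adjusted p = 0.258).

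YABBY genes, known as regulators of lateral organ polarity, gave a small group of like direction: 3 of 3 tested were lower in BETL, against 5.31% of all tested genes. Median-of-ratios scaling and quantile normalization each called 2 of the 3 lower. YAB5 was at 15.9 and 15.6 FPKM in BETL, against 122 and 103 FPKM in MATZ (log2 −2.76 ± 0.38, limma adjusted p = 0.00254). YAB3 was at 0 in each BETL library and at 8.49 and 16.2 FPKM in MATZ (adjusted p = 0.00137), a level of a few fragments by the inferred depths. YAB11 was at 15.1 and 0 FPKM in BETL and at 49.8 and 58.6 FPKM in MATZ (adjusted p = 0.0487, lost without BETL replicate 2 or either MATZ replicate and without most single libraries of the later ages, with values up to 0.227). LOB14, of the lateral organ boundaries family, was at 27.3 and 31.3 FPKM in BETL, against 262 and 315 FPKM in MATZ (log2 −3.25 ± 0.23, adjusted p = 2.99e-05). The homeobox gene HB115 was at 3.66 and 8.87 FPKM in BETL and at 56.8 and 57.2 FPKM in MATZ (adjusted p = 0.00258). These genes were chosen after their values were seen.

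The calls in 3 lists of defence and detoxification genes were all lower in BETL, while most members of the largest list were not called; over all tested genes 5.31% were called lower. Of 6 genes of the chitinase and defence list, 2 were lower and 0 higher (median log2 −1.41): chn1 and chiB, the second at 6.83 and 8.95 FPKM in BETL, against 42.8 and 30.5 FPKM in MATZ (limma adjusted p = 0.00364). Benzoxazinoids are defence compounds of grasses, made from indole by a series of cytochrome P450 enzymes. BX3, BX4 and BX5 encode such enzymes and formed a run of adjacent tested genes on chromosome 4 (2998897 to 3110973), all 3 lower in BETL. Of 5 tested benzoxazinoid genes these 3 were called, while bx8 and bx9 were not (log2 −1.04 and 0.245). Quantile normalization called 2 of the 5 lower. This list and that of the glutathione transferases were added after values were seen. BX3 was at 22.1 and 34.4 FPKM in BETL, against 382 and 427 FPKM in MATZ, 14.3-fold lower in BETL (log2 −3.82 ± 0.36, adjusted p = 0.000212). BX5 was at 33.8 and 21.6 FPKM in BETL and at 194 and 189 FPKM in MATZ (adjusted p = 0.0108, and up to 0.0574 without either MATZ replicate). BX4 was at 16.2 and 6.44 FPKM in BETL and at 93.2 and 49.9 FPKM in MATZ, with an adjusted p of 0.0446 that was lost without any 1 of the 4 libraries and without single libraries of the later ages (up to 0.191). Of 26 glutathione transferase genes 3 were lower, 0 higher and 23 not called, gst1 at 155 and 187 FPKM in BETL and 582 and 629 FPKM in MATZ (adjusted p = 0.0011), and gst3 at 12.6 and 3.15 FPKM in BETL and 108 and 87.2 FPKM in MATZ (adjusted p = 0.0024).

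Most members of the hormone lists were not called, and the shares over all tested genes were 2.16% higher and 5.31% lower. Of 43 auxin genes 2 were higher and 6 lower (median log2 −0.71, and −0.33 with quantile normalization, which called 1 and 3). PIN1a, for an auxin exporter, was at 9.24 and 2.89 FPKM in BETL, against 70.8 and 39.6 FPKM in MATZ (limma adjusted p = 0.00547, but 0.0509 without MATZ replicate 1). AUX3 was at 88.8 and 87.0 FPKM in BETL and at 299 and 311 FPKM in MATZ (adjusted p = 0.007). The auxin conjugation gene GH3 was higher at 545 and 533 FPKM in BETL, against 357 and 257 FPKM in MATZ, but its adjusted p of 0.0476 was lost without MATZ replicate 2 or either BETL replicate and without single later libraries (up to 0.20).

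Of 26 cytokinin genes 0 were higher and 4 lower (median log2 −0.62), but quantile normalization gave 1 higher and 2 lower (median −0.17), as many as median-of-ratios scaling (median −0.36). RR6, a response regulator gene, was at 2.86 and 0 FPKM in BETL and at 51.9 and 69.5 FPKM in MATZ (limma adjusted p = 0.0155, and up to 0.118 without BETL replicate 2 or either MATZ replicate). One of 3 genes with the name crr5, GRMZM2G156019, was at 4.27 and 10.2 FPKM in BETL and at 45.7 and 31.8 FPKM in MATZ (adjusted p = 0.014, and up to 0.063 without replicate 1 of either tissue). CKX4, for an enzyme that degrades cytokinin, was close in the 2 tissues, at 593 and 535 FPKM in BETL and 463 and 480.2 FPKM in MATZ (log2 0.26 ± 0.15, adjusted p = 0.525). Of 6 ethylene genes 0 were higher and 2 lower, both for the last enzyme of ethylene synthesis: acco20 at 10.8 and 10.9 FPKM in BETL against 58.2 and 52.8 FPKM in MATZ (adjusted p = 0.0041), and ACO31 at 0 in both BETL libraries and 7.63 and 12.9 FPKM in MATZ. The MATZ levels of ACO31 are a few fragments by the inferred depths. Of 20 abscisic acid genes 1 was higher and 1 lower, the lower being asr1, a gene of the response to abscisic acid, stress and ripening, at 27.6 and 30.8 FPKM in BETL and 186 and 159 FPKM in MATZ (adjusted p = 0.00465). Of 4 gibberellin genes 0 were called.

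The lists that follow stand beside shares of 2.16% higher and 5.31% lower over all tested genes. Among lignin and phenylpropanoid genes 3 of 16 were lower and 0 higher (median log2 −0.93), against 1 lower with quantile normalization (median −0.43). They were bm1 and cncr1, of the last steps of lignin monomer synthesis, and a laccase gene. The call of bm1 (adjusted p = 0.0411) was lost without BETL replicate 1 or either MATZ replicate and without single libraries of the later ages, with values up to 0.196. Levels of cncr1 were 3.51 and 2.65 FPKM in BETL and 17.3 and 19.4 FPKM in MATZ (limma adjusted p = 0.0132, but 0.0543 with quantile normalization). Of 17 cell death and autophagy genes 2 were lower, both for the autophagosome protein ATG8. Atg8d was at 102 and 79.9 FPKM in BETL and at 249 and 276 FPKM in MATZ (adjusted p = 0.0041), and Atg8b at 46.9 and 66.3 FPKM in BETL and 173 and 222 FPKM in MATZ (adjusted p = 0.0111, and up to 0.0898 without BETL replicate 1 or MATZ replicate 2). The brick genes, whose small proteins promote actin assembly at the cell edge, included brk1, at 21.1 and 9.76 FPKM in BETL and 195 and 424 FPKM in MATZ (log2 −4.23 ± 0.44, adjusted p = 0.000453). The superoxide dismutase gene CSD4 was at 671 and 570.0 FPKM in BETL and at 1307 and 1579 FPKM in MATZ (adjusted p = 0.00609).

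**Figure D4:**
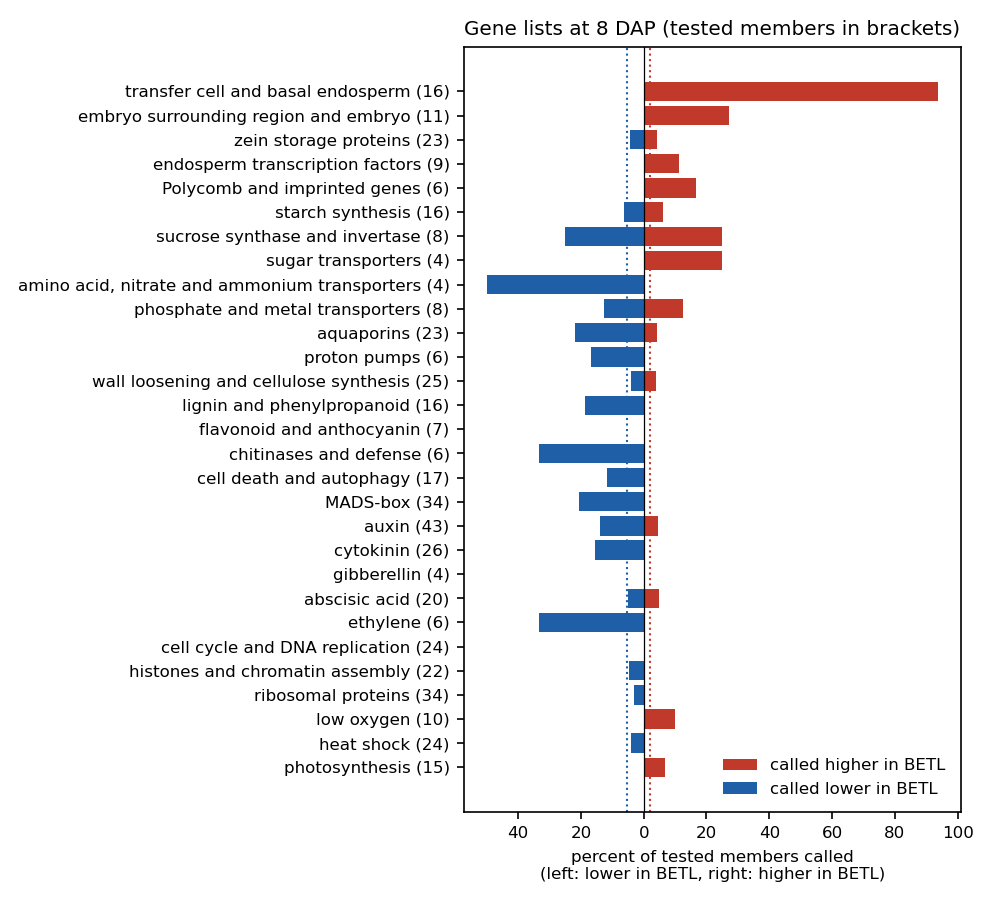
Percent of the tested members of each gene list that were called higher in BETL (red, to the right) or lower in BETL (blue, to the left) at 8 DAP, with the number of tested members in brackets. Dotted lines mark the shares over all tested genes, 2.16% higher and 5.31% lower. The transfer cell list reaches 15 of 16 to the right, and the MADS-box, chitinase, ethylene and nitrogen transporter lists extend to the left, some of them on few members.

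Some of the most abundant transcripts were shared. GRMZM2G166141 (chromosome 10, 101520598 to 101521474) was the highest in both tissues, at 93992 and 97409 FPKM in BETL and 79394 and 108239 FPKM in MATZ (log2 0.05 ± 0.22). GRMZM2G150091 was at 35833 and 36043 FPKM in BETL and at 48970 and 58056 FPKM in MATZ (limma adjusted p = 0.165). The levels of GRMZM2G136364 overlapped, at 9703 and 9363 FPKM in BETL and 8827 and 11040 FPKM in MATZ. The cysteine protease gene ccp1 was at 2178 and 1737 FPKM in BETL and at 2776 and 2379 FPKM in MATZ (adjusted p = 0.231). None of these passed the test, which does not show that they are equal.

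Lists of general cell functions held single calls or none, against 7.46% called over all tested genes. Of 24 cell cycle and DNA replication genes 0 were called (median log2 −0.01), of 34 ribosomal protein genes 1 was lower (median −0.05), of 22 histone and chromatin assembly genes 1 was lower (median −0.14), and of 24 heat shock genes 1 was lower (median 0.04). The first 3 medians turned positive under median-of-ratios scaling (0.14, 0.19 and 0.13) and under quantile normalization. Of the cell cycle genes, cycD2 was at 34.2 and 33.3 FPKM in BETL and at 31.2 and 28.6 FPKM in MATZ. Photosynthesis genes, markers of green tissue, were low in both, with a list sum of 84.4 and 85.6 FPKM in BETL and 84.7 and 56.8 FPKM in MATZ over 15 genes.

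The tissue difference at 8 DAP was then set against that at 14 and at 20 DAP. Tests of the change itself called 307 genes for 8 against 14 DAP (1.27%), 137 with a larger BETL minus MATZ difference at 8 DAP (0.566%) and 170 with a smaller one (0.702%). For 8 against 20 DAP they called 565 genes (2.33%), 315 larger (1.3%) and 250 smaller (1.03%) at 8 DAP. Both tests share the 8 DAP libraries. In 141 and 235 of these genes the means lay in opposite directions at the ages compared. The counts moved with single libraries: the first was 68 without MATZ 14 DAP replicate 2 and 797 without MATZ 8 DAP replicate 1, and the second 227 without MATZ 20 DAP replicate 2 and 1044 without MATZ 8 DAP replicate 1. The first count moved by more than 1.5 times without any other library except BETL 8 DAP replicate 2 and MATZ 20 DAP replicate 2, and the second without BETL 8 DAP replicate 1 (241), MATZ 8 DAP replicate 2 (987), MATZ 20 DAP replicate 1 (347) or either BETL 20 DAP replicate (347 and 354). Of the 522 genes higher in BETL at 8 DAP, 449 (86.0%) were higher by their means at 14 DAP and 425 (81.4%) at 20 DAP, against 49.9% and 47.0% of all tested genes. Of the 1285 lower ones, 780 (60.7%) and 814 (63.3%) were lower at 14 and 20 DAP, against 43.1% and 48.0% of all tested genes. Of the rest, 292 and 291 had equal means at these ages, and 213 (16.6%) and 180 (14.0%) were higher in BETL. Among lower ones of at least 20 FPKM at 8 DAP, 83.8% and 86.0% were lower later, against 59.2% and 67.0% of all tested genes at that level.

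For some transfer cell genes the tissue difference was larger at 8 DAP than later. For the 15 genes called at 8 DAP, a choice made on the 8 DAP values, the MATZ mean had a median of 3.01% of the BETL mean at 8 DAP, 12.3% at 14 DAP and 13.1% at 20 DAP. The largest values among the 15 were 16.5%, 232% and 41.3% at these ages, so not every gene had the higher mean in BETL at 14 DAP. The change against 14 DAP was called for 5 of the 16 list members and that against 20 DAP for 4, each with the larger difference at 8 DAP. Levels of betl10 in MATZ were 167 and 209 FPKM at 8 DAP, 783 and 640 FPKM at 14 DAP and 1025 and 967 FPKM at 20 DAP. In BETL betl10 stood at 5496 and 6439, 5540 and 6710, and 5559 and 4718 FPKM at these ages, so that its MATZ level was the one that differed (log2 change of the tissue difference 2.62 ± 0.25 against 20 DAP, limma adjusted p = 0.00162). The invertase gene mn1 kept its ratio, with MATZ at 16.5%, 16.1% and 17.8% of BETL at 8, 14 and 20 DAP, while its BETL levels were 7225 and 6251, 3614 and 2744, and 2260 and 2064 FPKM. Whether tissue carried over between the pieces differed with age was not tested.

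Other genes changed in BETL. The tissue difference of pip2b was larger later, since its BETL levels were 2520 and 2442 FPKM at 8 DAP, 1071 and 736 FPKM at 14 DAP and 628 and 542 FPKM at 20 DAP, while MATZ stood between 5703 and 8064 FPKM (limma adjusted p = 0.021 for the change against 14 DAP, lost without either BETL replicate of 8 DAP, BETL 20 DAP replicate 1 or MATZ 14 DAP replicate 2, with values up to 0.0821, and 0.00159 against 20 DAP). CKX4, close in the 2 tissues at 8 DAP, was at 122 and 155 FPKM in BETL at 14 DAP, against 880.1 and 930.0 FPKM in MATZ, and at 55.2 and 46.7 FPKM in BETL at 20 DAP, against 769 and 876 FPKM in MATZ (adjusted p = 0.00592 and 0.000237). The cysteine protease gene mir3, which was named after its values were seen, followed this course, at 261 and 277 FPKM in BETL at 8 DAP against 537 and 386 FPKM in MATZ, and at 46.3 and 41.4 FPKM in BETL at 20 DAP against 650.3 and 717 FPKM in MATZ (adjusted p = 0.00132). The shared transcript GRMZM2G166141 was at 421 and 317 FPKM in BETL at 14 DAP, against 806 and 1057 FPKM in MATZ, far below its 8 DAP level in both tissues, and the change of the tissue difference was not called (adjusted p = 0.0661). At 20 DAP it was at 40.9 and 35.9 FPKM in BETL, against 747 and 561 FPKM in MATZ, and the change was called, also without each single library (log2 4.09 ± 0.31, adjusted p = 0.000788).

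**Figure D5:**
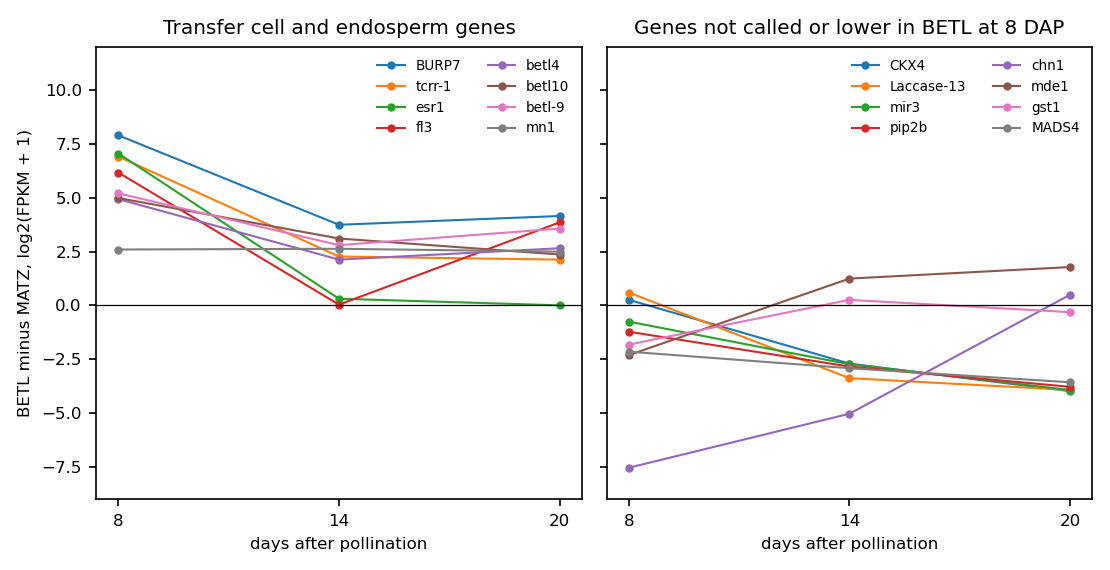
BETL minus MATZ difference of mean log2(FPKM + 1) at 8, 14 and 20 DAP, 2 libraries per tissue and age, for 8 transfer cell and endosperm genes (left) and 8 genes that were not called or lower in BETL at 8 DAP (right), with a line at 0. On the left most genes are highest at 8 DAP and mn1 stays near 2.59. On the right CKX4 moves down from 0.26 and mir3 from −0.76, and chn1 moves up from −7.54.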

How the data were processed

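The authors deposited 1 table of FPKM values with a column per library, per the file headers. Per the submitters' processing notes it was made with TopHat2, Bowtie2 and Cufflinks, whose versions and settings, like the genome build and annotation, were not given in the sources used here. FPKM values were used as deposited. Of 39423 genes, the 24213 at 1 FPKM or more in at least 2 of the 12 libraries were tested on log2(FPKM + 1) with limma 3.58.1 in R 4.3.3 (6 group means, mean trend, all 12 libraries, 6 residual degrees of freedom) and adjusted by Benjamini-Hochberg. No count test was run. The contrasts were BETL against MATZ at 8 DAP and the change of that difference against 14 and 20 DAP. Same-numbered libraries did not deviate together (r = 0.03 for the pair at 8 DAP), so replicate numbers were not used as pairs.

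Names came from a RefSeq table (assembly Zm-B73-REFERENCE-NAM-5.0), from which only names were taken: 18770 IDs matched, 520 of them more than 1 record, and 2232 tested genes have a descriptive name. What a gene encodes is stated from its name. The comparison, the 30 gene lists and 16 lists added later were chosen with earlier results of these data known, and 26 matches in a wrong sense were taken out. Named genes (195) were the 15 largest named differences of at least 20 FPKM in each direction whose groups do not overlap, the 10 largest differences of mean FPKM, up to 5 members per list by level, anchors, and the 6 largest changes with age in each direction. Further genes were named after their values were seen, which holds for members of lists beyond these 5, genes in chromosomal runs and genes of the added lists. Promoter sequences were not analysed here.

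On simulated data for the 8 DAP contrast (24213 genes), limma called 1, 15, 35 and 48 of 50 genes changed by 1, 2, 3 and 4 on the log2 scale, and 3 of 24013 unchanged genes. The changed genes were all drawn from those whose mean log2(FPKM + 1) over the 12 libraries lay above that of 20 FPKM. The rates of these changed genes therefore do not show how often low genes would be called. The 11177 tested genes under 5 FPKM in the higher tissue are such genes. Alternatives were pseudocounts of 0.1 and 5, no filter, a filter at 5 FPKM, median-of-ratios and quantile scaling, a replicate block, no mean trend, the compared groups alone and leaving out each library. Plots were drawn with matplotlib 3.10.9, and tables were handled in pandas 2.3.3 under Python 3.11.15.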

Additional observations from a re-analysis of the deposited data

Results flagged for a closer look

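The results gathered here are genes whose BETL minus MATZ difference at 8 DAP differed from that at a later age, by limma's test of the change itself with Benjamini-Hochberg adjustment. Values are changes of the log2 difference, 8 DAP minus the later age, so a positive value means a difference further towards BETL at 8 DAP. The 24 values come from 19 genes with the largest changes among named genes of at least 20 FPKM in the highest group. Of these 24 calls, 9 held without each library in turn, and 15 were lost without at least 1.

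Against 14 DAP, the difference was larger at 8 DAP by 6.74 for esr1 (adjusted p = 0.0194, a call lost when BETL 8 DAP replicate 1 or the second MATZ library of 14 DAP was left out), by 6.13 for fl3 and by 4.15 for BURP7. The endosperm regulator fl3 was at 644 and 565 FPKM in BETL at 8 DAP, against 10.6 and 5.12 FPKM in MATZ, and at 145 and 228 FPKM in BETL at 14 DAP, against 233 and 136 FPKM in MATZ. The tissues overlapped in fl3 at 14 DAP. BURP7 was at 4247 and 5636 FPKM in BETL at 14 DAP, against 400.3 and 332 FPKM in MATZ. The storage globulin gene leg1 changed by 5.56, and stood at 123 and 142 FPKM in BETL at 14 DAP, against 162 and 150.4 FPKM in MATZ. The transfer cell regulator tcrr-1 changed by 4.64 and the laccase gene Laccase-13 (GRMZM5G814718) by 3.98. The calls of leg1, tcrr-1 and Laccase-13 were lost without BETL 8 DAP replicate 1, BETL 14 DAP replicate 1 or either MATZ 14 DAP replicate, and those of leg1 and tcrr-1 without either BETL 20 DAP replicate, with adjusted p up to 0.0837, 0.0886 and 0.0821; that of tcrr-1 was also lost without either MATZ 8 DAP replicate or BETL 8 DAP replicate 2.

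In the other direction against 14 DAP were rws1 (−3.95), bZIP116 (−3.87), bHLH129 (−3.77), mde1 (−3.55), fdx3 (−2.12) and gst1 (−2.08). The gene mde1 was at 9.49 and 8.98 FPKM in BETL at 8 DAP, against 40.9 and 60.5 FPKM in MATZ, and at 147 and 138 FPKM in BETL at 14 DAP, against 61.4 and 58.0 FPKM in MATZ. The calls of rws1, bZIP116 and bHLH129 were each lost without 10 of the single libraries and that of fdx3 without 11, with adjusted p up to 0.119. Those of mde1 and gst1 were lost when either BETL 8 DAP replicate 1 or the second MATZ library of 14 DAP was left out, that of mde1 also without BETL 14 DAP replicate 1 and that of gst1 without MATZ 14 DAP replicate 1, with values up to 0.0729.

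Against 20 DAP, the difference was larger at 8 DAP by 7.05 for esr1, which was listed at 0 in all 4 libraries of 20 DAP, by 4.79 for tcrr-1, 4.72 for hyp1, 4.53 for Laccase-13, 4.24 for CKX4 and 3.75 for BURP7. Laccase-13 was at 507 and 394 FPKM in BETL at 8 DAP, against 354 and 247 FPKM in MATZ, and at 2.40 and 5.64 FPKM in BETL at 20 DAP, against 64.3 and 79.3 FPKM in MATZ. The call of tcrr-1 was lost without BETL 8 DAP replicate 1 or either BETL 20 DAP replicate (adjusted p up to 0.0726).

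In the other direction against 20 DAP, the changes were −8.03 for chn1, −4.55 for bz15, −4.09 for mde1, −3.81 for wx1, −3.41 for his2b2 and −2.73 for glb3. At 8 DAP the MATZ levels of wx1 were near that of 1 fragment, and those of bz15 were at a few fragments by the inferred depths. The chitinase gene chn1 stood at 1.05 and 2.67 FPKM in BETL at 20 DAP and at 2.81 and 0 FPKM in MATZ, and at 12.4 and 2.90 FPKM in BETL and 1298 and 1403 FPKM in MATZ at 8 DAP. The globulin gene glb3 was listed at 0 in all 4 libraries at 8 DAP and was at 272 and 297 FPKM in BETL at 20 DAP, against 38.7 and 45.7 FPKM in MATZ. The calls of his2b2 and glb3 were lost without 8 and 6 of the single libraries (adjusted p up to 0.116 and 0.0867), that of bz15 without BETL 8 DAP replicate 1, MATZ 20 DAP replicate 1 or either BETL 20 DAP replicate (up to 0.0662) and that of wx1 without MATZ 20 DAP replicate 2 (0.0573).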

How the results depend on the processing

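At 8 DAP the count of 1807 calls lay between 1487 and 1876 under both pseudocounts, both filters, both scalings, the replicate block and no mean trend. A like count does not mean the same genes: 1343 of the 1807 genes were also called with quantile normalization. Leaving out a library of 8 DAP also changed which genes were called. The fit on the compared groups alone called 0 (4303 at an unadjusted p under 0.05), and genes with a mean of at least 20 FPKM in the higher tissue, a limit chosen after seeing the data, held 1071 of the calls. Leaving out single libraries gave 1029 (without BETL 8 DAP replicate 1) to 1784, with 1147 without MATZ 8 DAP replicate 2; a library left alone in its group is assumed to vary like the other groups. The replicate block gave 1571 calls, and the numbers are shared labels only, since the pair of BETL and MATZ at 8 DAP correlated with r = 0.03. For the change against 14 DAP (307 calls) a pseudocount of 0.1 gave 952, the replicate block 129, no mean trend 164 and the compared groups alone 1, and leaving out single libraries gave 68 to 797. For the change against 20 DAP (565 calls) a pseudocount of 0.1 gave 1143, no mean trend 260, the compared groups alone 878 and the replicate block 406, and leaving out single libraries gave 227 to 1044. The fit on the compared groups alone has fewer samples to estimate the spread, yet its count rose for the change against 20 DAP. The cause of these moves was not tested. Of 195 named genes 92 were called at 8 DAP, 51 of them under every setting tried except the compared groups alone. No called one changed sign, while 25 of those not called did under at least 1 setting. A pseudocount of 0.1 ended 16 of these calls, a pseudocount of 5 ended 4, no filter 4, the 5 FPKM filter 0, median-of-ratios scaling 6, quantile normalization 9, the replicate block 7 and no mean trend 22. Without the mean trend the calls lost included pip2b, pip2e, Atg8b, Atg8d, AUX3, mha2, fdx3 and YAB11, and beyond the 195 genes cc5, psk1 and CSD4; leaving out single libraries ended 5 to 31 of the 92 calls. Depth limits low genes: 1 fragment on 1000 bases is worth 2.89 to 6.90 FPKM by the inferred depths, so a 0 beside a few FPKM is not a detectable difference in a single library.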
